A study of Arabidopsis thaliana with 11 samples.

Results

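The 3 nuclear glycine tRNA consensus sequences with 5-methylcytosine (m5C), named Gly(GCC), Gly(CCC) and Gly(TCC) after their anticodons, were described at every cytosine listed for them. They held 10 of the 39 sites and were 3 of the 24 tRNAs with a site, and stood for 39 of the 257 loci behind those tRNAs. Members were all glycine tRNAs in the list of methylated sites, taken by name. That list required 20% methylation, so glycine tRNAs without a site, such as the nuclear Gly(ACC), are not among them. RNA bisulfite sequencing (RBS-seq) was applied to gel-purified tRNA of *Arabidopsis thaliana*, Columbia ecotype: unmethylated cytosine is read as T after bisulfite, and methylated cytosine stays C. The level of a site is the percentage of C among the C and T reads there.

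The 11 libraries belonged to 2 experiments. In experiment 1 RNA was taken from seedlings, 10 days after they germinated. It had 1 library each of the homozygous T-DNA insertion lines *trdmt1*, *trm4b-1*, *trm4a*, *nsun5-2* and *nop2a-2* (also called *oli2-2*) and of the *trdmt1 trm4b* double mutant, which carries the *trdmt1* and *trm4b-1* alleles. Its reference was 3 wild type libraries, deposited as the authors' mean without its spread. Experiment 2 used mixed buds, with 1 library of a second allele, *trm4b-2*, and 1 of the wild type. No mutant had a replicate, so differences have no replicate error beside them and were not tested. Read depth at each site was unknown, since the tables used here hold percentages alone. The paper's supplement lists read coverage of the libraries, which was not used here. All 10 glycine sites had a value in all 9 columns, which held for 25 of the 39 sites in the series.

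Glycine tRNAs carry glycine to the ribosome, and the first base of the anticodon decides which of the glycine codons each isoacceptor reads. In eukaryotes TRDMT1 (also called DNMT2), here AT5G25480, methylates C38, the last base of the anticodon loop. In yeast and animals, enzymes of the TRM4/NSUN2 family act at the junction of the variable loop and the T stem. *Arabidopsis* has a pair of TRM4 paralogues, TRM4B at AT2G22400 and TRM4A at AT4G40000, of which TRM4A lacks a motif needed for catalysis. C48 is the last base of the variable loop, and C49 and C50 are the first bases on the 5′ side of the T stem. In animals, m5C at these places has been linked to protection of tRNA from cleavage. The yeast counterparts of NSUN5 and NOP2A, named RCM1 and NOP2, methylate ribosomal RNA.

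The full consensus sequences are shown because the 3 tRNAs differ in which of the methylated positions hold a cytosine. They are given 5′ to 3′ in DNA letters as the authors listed them, with the listed sites in capitals.
Gly(GCC): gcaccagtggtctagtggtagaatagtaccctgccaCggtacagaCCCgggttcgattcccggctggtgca
Gly(CCC): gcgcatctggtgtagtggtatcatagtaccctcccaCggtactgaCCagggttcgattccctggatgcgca
Gly(TCC): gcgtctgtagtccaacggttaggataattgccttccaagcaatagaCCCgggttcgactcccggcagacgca

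Gly(GCC) had 4 listed sites among its 20 cytosines, Gly(CCC) 3 among 20 and Gly(TCC) 3 among 21. Each site is named by its structural position in the standard tRNA numbering, which differs from its place in the sequence: C38 is base 37 of Gly(GCC) and Gly(CCC). Gly(GCC) was identical to Gly(CCC) at 56 of 71 bases and to Gly(TCC) at 51 of 72 aligned bases. Gly(TCC) matched Glu(TTC) at 52 of 72 aligned bases, 1 more than it shared with Gly(GCC) and 6 more than the 46 it shared with Gly(CCC).

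The sequences set which sites each isoacceptor could have. C38 was present in Gly(GCC) and Gly(CCC) and absent from Gly(TCC), which differed by C38A (Gly(GCC) has C at structural position 38 and Gly(TCC) has A). C50 was present in Gly(GCC) and Gly(TCC) and absent from Gly(CCC), which differed by C50A. In Gly(CCC) the base opposite was changed too, by G64T, so that the C50:G64 pair of the T stem was an A50:T64 pair, while C49:G65 was kept in all 3 tRNAs. Thus each of the 3 tRNAs had C48 and C49, and each cytosine that these 3 tRNAs had at positions 38, 48, 49 and 50 was listed as methylated.

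The anticodon arm, positions 27 to 43, is shown for the glycine tRNAs and for Asp(GTC), Glu(CTC) and Glu(TTC), since all of these but Gly(TCC) have a cytosine at position 38 and only the capital ones were listed.
Gly(GCC): gtaccctgccaCggtac
Gly(CCC): gtaccctcccaCggtac
Gly(TCC): attgccttccaagcaat
Asp(GTC): cccgcctgtcaCgcggg
Glu(CTC): ctcggctctcacccgag
Glu(TTC): tctggctttcacccagg

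Of 57 nuclear consensus sequences that could be numbered there, 13 had a cytosine at position 38, and 3 of these were listed as methylated there: Asp(GTC), Gly(CCC) and Gly(GCC). In 4 others, Glu(CTC), Glu(TTC), His(GTG) and Val(CAC), which are named because they are so few, C38 was not listed although another position of the tRNA was. The rest were in tRNAs without any listed site, some of which may not have been detected. According to the paper, no other tRNA that it detected was methylated at C38. The glutamate loops end in the same letters, cac, as the loops of the listed tRNAs.

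The stretch from position 47 to 58 is shown for the same 6 tRNAs, because it holds C48, C49 and C50.
Gly(GCC): aCCCgggttcga
Gly(CCC): aCCagggttcga
Gly(TCC): aCCCgggttcga
Asp(GTC): aCCCgggttcga
Glu(CTC): acCCgggttcga
Glu(TTC): aCCCgggttcga

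Gly(GCC) and Gly(TCC) thus had the same 12 letters as Asp(GTC) and both glutamate tRNAs. The letters acccggg stood at positions 47 to 53 in 5 of the 58 nuclear consensus sequences (8.62%), and these 5 were also the tRNAs with a listed C50. The letters were taken from tRNAs with a listed C50 and hold C50 themselves, so this overlap is not separate evidence. The search read the strand of the RNA. Anywhere in the sequence, acccggg was found in 8 of the 58 (13.8%), and its reverse complement cccgggt, which overlaps it, in 6. A cytosine at position 50 was itself commoner, in 25 of 55 nuclear sequences that could be numbered. Of these 25, 11 were in tRNAs with any listed site, and C50 was unlisted in 6 of the 11. The paper did not detect all consensus sequences, so an unlisted cytosine need not be an unmethylated one.

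The authors' list placed the 22 loci of Gly(GCC) on all 5 nuclear chromosomes, with 8 on chromosome 1, 5 on chromosome 5, 4 each on chromosomes 2 and 3, and 1 on chromosome 4. Gly(TCC) had 12 loci, 5 of them on chromosome 5. The 5 loci of Gly(CCC), the fewest, lay on chromosomes 2 to 5. All 39 were tRNA genes in RefSeq (assembly TAIR10.1), and each was as long as its consensus, 71 or 72 bases. Some copies lay close together (TAIR10): AT2G30180 at chr2:12881591-12881661 and AT2G30190 at chr2:12882734-12882804, both Gly(GCC), were 1072 bases apart. The pair AT5G59385 at chr5:23953942-23954013 and AT5G59395 at chr5:23957430-23957501, both Gly(TCC), were 3416 bases apart. Levels were measured on the consensus, so single loci were not told apart.

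In the wild type the glycine sites were methylated at high levels. Seedlings had 77% to 95% with a median of 92% over the 10 sites, beside a median of 90% over all 39. Buds had 72% to 96% with a median of 93.5%, beside 90% over all sites. The lowest glycine site in each tissue was Gly(TCC) C48, at 72% in buds and 77% in seedlings, and the other 9 sites lay between 87% and 96%. Buds minus seedlings ranged from -5 points at Gly(TCC) C48 to 6 points at Gly(CCC) C49, with a median absolute difference of 1.5 points. Over the 25 fully measured sites it was 1 point. Tissue and experiment changed together and cannot be told apart.

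**Figure D1:**
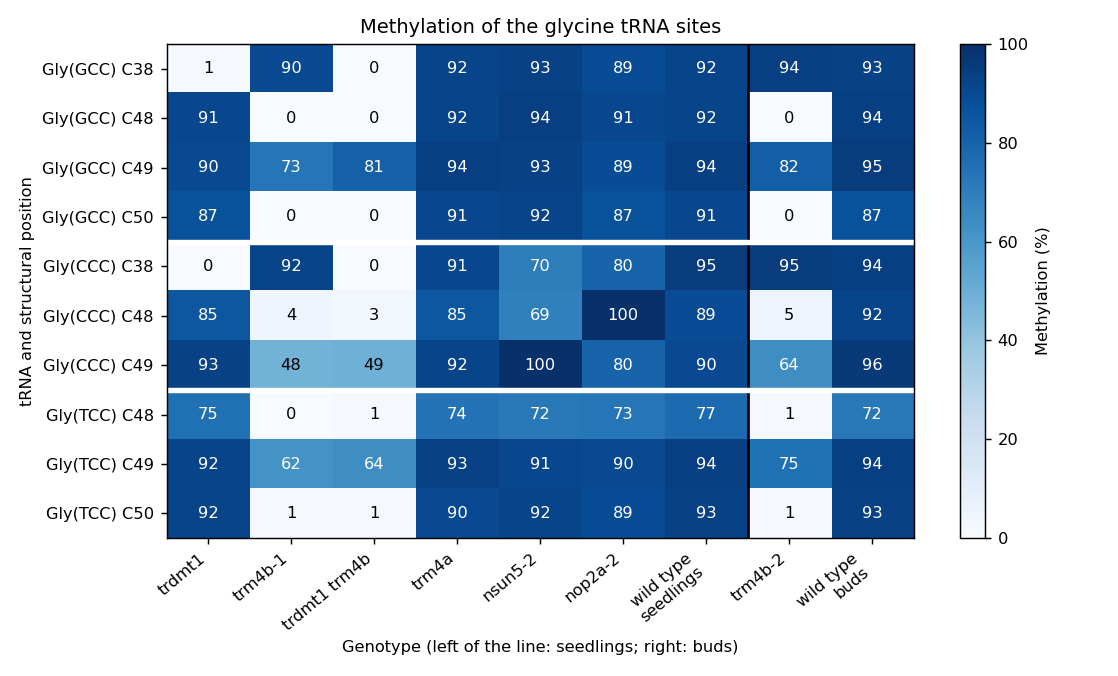
Methylation in percent at the 10 glycine sites (rows) in each genotype (columns), seedlings left of the line and buds right of it. C38 was 0% or 1% in *trdmt1* and the double mutant alone, and C48 and C50 were 0% to 5% in the 3 lines with a *trm4b* mutation, where C49 stayed at 48% to 82%.

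C38, the TRDMT1 position, was measured in the isoacceptors that have it. Gly(GCC) C38 was at 1% in *trdmt1*, 90% in *trm4b-1*, 0% in *trdmt1 trm4b*, 92% in *trm4a*, 93% in *nsun5-2* and 89% in *nop2a-2*, against 92% in wild type seedlings. *trm4b-2* buds had 94%, against 93% in wild type buds. Gly(CCC) C38 was at 0% in *trdmt1*, 92% in *trm4b-1*, 0% in *trdmt1 trm4b*, 91% in *trm4a*, 70% in *nsun5-2* and 80% in *nop2a-2*, against 95% in wild type seedlings. The bud levels were 95% in *trm4b-2* and 94% in the wild type. Both sites were thus at or near 0 in the lines that lack TRDMT1 and at 70% or more in each of the others.

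Calls were made where the wild type of the same experiment had 20% or more. Mutant levels up to 5% were called lost, higher levels were called reduced if they lay 20 points or more under the wild type, and the rest were called retained. In *trdmt1*, 2 of the 10 glycine sites were called, both lost and both C38, beside 4 of the 30 sites measured in the series (13.3% called and 10.0% lost). The other 8 glycine sites were at 75% to 93% in *trdmt1*, within 4 points of wild type seedlings. Gly(TCC), which has no C38, was at 75% at C48, 92% at C49 and 92% at C50 in *trdmt1*, against 77%, 94% and 93% in wild type seedlings. The isoacceptor without the TRDMT1 position had no called site in that line.

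C48, which closes the variable loop, was lost in all 3 glycine tRNAs in each line with a *trm4b* mutation. Gly(GCC) C48 was at 91% in *trdmt1*, 0% in *trm4b-1*, 0% in *trdmt1 trm4b*, 92% in *trm4a*, 94% in *nsun5-2* and 91% in *nop2a-2*, against 92% in wild type seedlings. *trm4b-2* buds had 0%, against 94% in wild type buds. This was the most even glycine site outside the *trm4b* lines, with 3 points between its lowest and highest level over the 5 columns that carry no *trdmt1* or *trm4b* mutation. Gly(CCC) C48 was at 85% in *trdmt1*, 4% in *trm4b-1*, 3% in *trdmt1 trm4b*, 85% in *trm4a*, 69% in *nsun5-2* and 100% in *nop2a-2*, against 89% in wild type seedlings. The bud levels were 5% in *trm4b-2* and 92% in the wild type. Its levels of 3% to 5% in the *trm4b* lines were the highest C48 levels among the glycine tRNAs there, and the bud value stood at the limit for a lost call. Gly(TCC) C48 was at 75% in *trdmt1*, 0% in *trm4b-1*, 1% in *trdmt1 trm4b*, 74% in *trm4a*, 72% in *nsun5-2* and 73% in *nop2a-2*, against 77% in wild type seedlings. *trm4b-2* buds had 1%, against 72% in wild type buds.

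In the 6 columns without a *trm4b* mutation, Gly(TCC) C48 was 15 to 22 points below Gly(GCC) C48 in each. It was below Gly(CCC) C48 in 5 of the 6 columns, the exception being *nsun5-2*, with a median gap of 11.5 points. Gly(TCC) and Gly(GCC) have the same letters from position 47 to 58. Asp(GTC) C48, in the same stretch, was closer to Gly(TCC), with a mean absolute difference of 4.0 points over the 9 columns against 16.6 points from Gly(GCC). Glu(TTC) C48 differed from Gly(TCC) by 35.0 points on average, being lower in 8 of the 9 columns. These means include the *trm4b* lines, where all of these sites were at 0% to 3%.

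Other tRNAs were mixed at C48. Of those with the same stretch as Gly(GCC) and Gly(TCC), the ones with a listed C48 were also at or near 0 in the *trm4b* lines. Glu(CTC) has this stretch without a listed C48. Asp(GTC) C48 was at 2% in *trm4b-1* and 2% in *trdmt1 trm4b*, against 69% in wild type seedlings. It was at 3% in *trm4b-2*, against 72% in wild type buds. Glu(TTC) C48 was at 0% in all 3 lines, against 23% in wild type seedlings and 17% in wild type buds. In *trm4b-1* the glycine C48 sites had a median difference of -85 points (3 of 3 lost), and the 8 other C48 sites one of -29.5 points (4 lost, 2 reduced, 2 retained). In *trdmt1 trm4b* the medians were -86 points over the 3 glycine sites and -33.5 points over 12 others, of which 6 were lost, 1 was reduced and 5 were retained. In *trm4b-2* buds they were -87 points and -14 points over 10 others, of which 2 were lost, 2 reduced and 5 retained. Glu(TTC) was below the wild type minimum for a call in buds. A median in points counts the loss of a site with a low wild type level, such as Glu(TTC), as a small fall. The difference between glycine and other tRNAs was not tested.

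C50, the last of 3 adjacent cytosines in the tRNAs where it was listed, was lost in them wherever TRM4B was mutated. Gly(GCC) C50 was at 87% in *trdmt1*, 0% in *trm4b-1*, 0% in *trdmt1 trm4b*, 91% in *trm4a*, 92% in *nsun5-2* and 87% in *nop2a-2*, against 91% in wild type seedlings. The bud levels were 0% in *trm4b-2* and 87% in the wild type. Gly(TCC) C50 was at 92% in *trdmt1*, 1% in *trm4b-1*, 1% in *trdmt1 trm4b*, 90% in *trm4a*, 92% in *nsun5-2* and 89% in *nop2a-2*, against 93% in wild type seedlings. *trm4b-2* buds had 1%, against 93% in wild type buds. The 3 other C50 sites of the series, in Asp(GTC), Glu(CTC) and Glu(TTC), were lost in the same lines. Mean differences over the 9 columns between a glycine C50 and one of these 3 were small. They ran from 0.778 points for Gly(TCC) and Glu(TTC) to 3.89 points for Gly(GCC) and Asp(GTC). These means include the *trm4b* lines, where all C50 sites were at 0% or 1%.

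**Figure D2:**
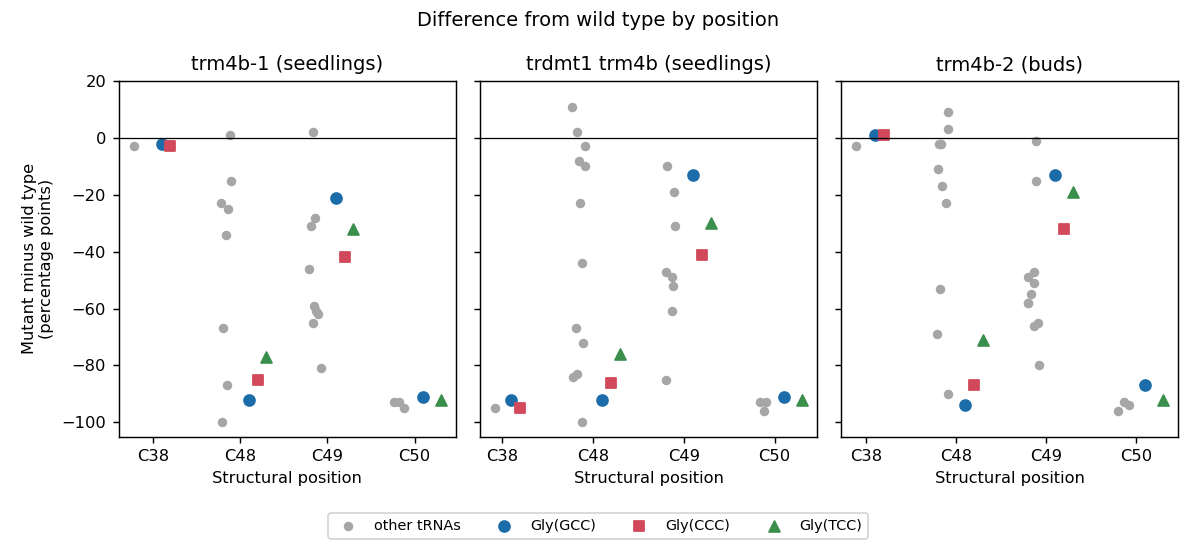
Mutant minus wild type in percentage points at each structural position, in *trm4b-1* and *trdmt1 trm4b* seedlings and *trm4b-2* buds. Coloured points are the glycine tRNAs and grey points the other tRNAs. The glycine C48 sites lay at -94 to -71 points and the glycine C49 sites at -42 to -13 points.

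C49, between C48 and C50, kept much of its methylation in the same tRNAs. Gly(GCC) C49 was at 90% in *trdmt1*, 73% in *trm4b-1*, 81% in *trdmt1 trm4b*, 94% in *trm4a*, 93% in *nsun5-2* and 89% in *nop2a-2*, against 94% in wild type seedlings. The bud levels were 82% in *trm4b-2* and 95% in the wild type. Gly(TCC) C49 was at 92% in *trdmt1*, 62% in *trm4b-1*, 64% in *trdmt1 trm4b*, 93% in *trm4a*, 91% in *nsun5-2* and 90% in *nop2a-2*, against 94% in wild type seedlings. *trm4b-2* buds had 75%, against 94% in wild type buds. Gly(CCC) C49, the one without a C50 next to it, was at 93% in *trdmt1*, 48% in *trm4b-1*, 49% in *trdmt1 trm4b*, 92% in *trm4a*, 100% in *nsun5-2* and 80% in *nop2a-2*, against 90% in wild type seedlings. The bud levels were 64% in *trm4b-2* and 96% in the wild type.

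The order of the 3 isoacceptors at C49 was the same in each of the 3 lines with a *trm4b* mutation: Gly(GCC) was highest, Gly(TCC) next and Gly(CCC) lowest. Gly(GCC) exceeded Gly(TCC) by 7 to 17 points and Gly(CCC) by 18 to 32 points, and Gly(TCC) exceeded Gly(CCC) by 11 to 15 points. Of the other 6 columns only *trm4a* had this order, at 94%, 93% and 92%. Gly(GCC) minus Gly(TCC) lay between -2 and 2 points there, and Gly(GCC) minus Gly(CCC) between -7 and 9 points. Gly(CCC) minus Gly(TCC) ran from -10 points, in *nop2a-2*, to 9 points there. Its lowest value thus came near the -15 to -11 points of the *trm4b* lines. The double mutant has its *trm4b* allele and its wild type in common with *trm4b-1*, so these lines do not give separate evidence, and with 1 library each the gaps have no replicate error beside them.

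Relative to the wild type level, Gly(GCC) C49 kept 77.7% in *trm4b-1*, 86.2% in *trdmt1 trm4b* and 86.3% in *trm4b-2*. Gly(TCC) C49 kept 66.0%, 68.1% and 79.8% in the same lines, and Gly(CCC) C49 kept 53.3%, 54.4% and 66.7%. These gave the glycine tRNAs ranks 2, 4 and 5, from high to low, among the 12 C49 sites measured in *trm4b-1*, the 11 in *trdmt1 trm4b* and the 14 in *trm4b-2*, with Glu(CTC) at rank 3 in each. The highest was Gln(CTG), at 102%, 89.8% and 98.9% of its wild type level in these lines. The lowest was Thr(TGT), at 0% in each, tied with Val(CAC) in *trm4b-1* and the double mutant and with Ala(AGC) in *trm4b-1*. The same letters around C49 went with a wide range of levels: the 5 tRNAs with acccggg at positions 47 to 53 kept 34.0% to 77.7% in *trm4b-1*, 44.7% to 86.2% in *trdmt1 trm4b* and 49.5% to 86.3% in *trm4b-2*.

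**Figure D3:**
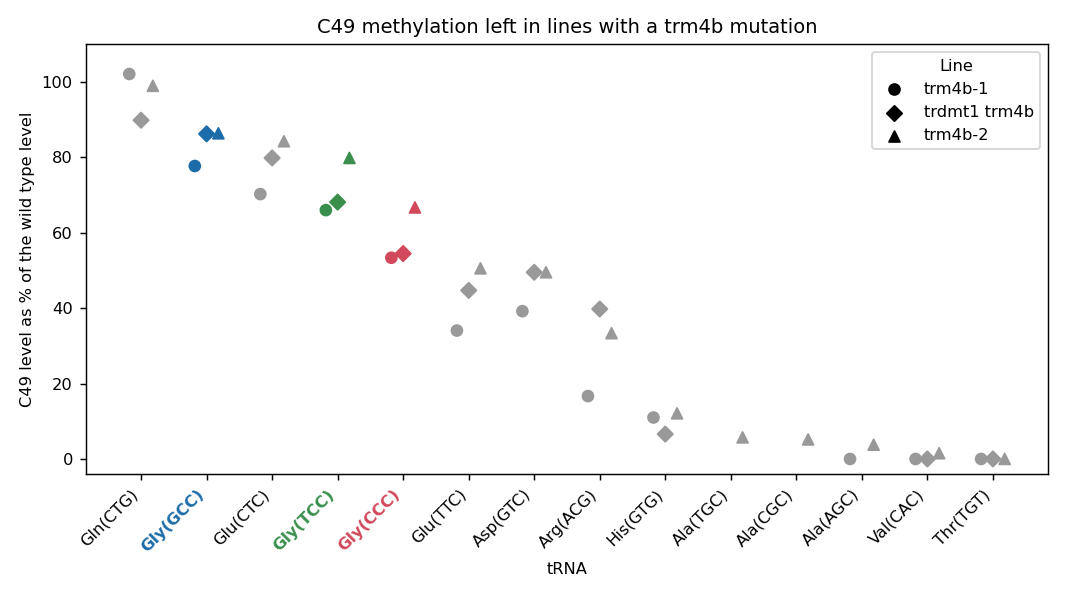
C49 level in each line as a percentage of its wild type level (vertical axis), for every tRNA with a C49 value (horizontal axis), with 1 symbol for each line and the glycine tRNAs in colour. Gly(GCC), Gly(TCC) and Gly(CCC) had ranks 2, 4 and 5 in each line.

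The median difference at the 3 glycine C49 sites was -32 points in *trm4b-1*, beside -44 points over all 12 C49 sites. It was -30 points in *trdmt1 trm4b*, beside -41 points over 11 sites, and -19 points in *trm4b-2*, beside -50 points over 14 sites. The C49 effect was smaller in *trm4b-2* buds than in *trm4b-1* seedlings at each glycine tRNA. The gap was 8 points at Gly(GCC), 10 points at Gly(CCC) and 13 points at Gly(TCC). This held too at Asp(GTC) (-49 points against -59), Glu(CTC) (-15 against -28), Glu(TTC) (-47 against -62), Arg(ACG) and His(GTG). In points against the wild type, *trm4b-2* was the lower line at Ala(AGC), Gln(CTG), Thr(TGT) and Val(CAC). At Ala(AGC), Thr(TGT) and Val(CAC), however, *trm4b-1* was at 0% and *trm4b-2* at 2%, 0% and 1%. Their larger falls in points came with higher wild type levels in buds: 53%, 58% and 66%, against 46%, 31% and 61% in seedlings. Ala(CGC) and Ala(TGC) had C49 values in *trm4b-2* but not in *trm4b-1*, so the all-site medians cover unlike sets. Allele, tissue and experiment changed together and cannot be told apart.

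Over all positions, 8 of 10 glycine sites were called in *trm4b-1* (5 lost, 3 reduced), beside 78.1% of the 32 sites measured in the series called and 46.9% lost. In *trm4b-2* 6 of 10 were called (5 lost, 1 reduced), beside 62.9% of 35 sites called and 42.9% lost. In *trdmt1 trm4b* 9 of 10 were called (7 lost, 2 reduced), beside 74.3% of 35 sites called and 54.3% lost. The shares in the *trm4b* alleles were close to those of the whole series, so the count itself did not set the glycine tRNAs apart. The sites retained were the C38 pair in both *trm4b* alleles, with Gly(GCC) C49 and Gly(TCC) C49 as well in *trm4b-2*, and Gly(GCC) C49 alone in the double mutant. Gly(GCC) C49 lay just inside the limit in *trm4b-1*, 21 points below the wild type, and Gly(TCC) C49 just outside it in *trm4b-2*, at 19 points.

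Set against its parents, the double mutant had both losses and nothing beyond them at the glycine sites. Apart from C38, its levels were within 8 points of *trm4b-1*, the largest gap being 81% against 73% at Gly(GCC) C49, and none was lower by more than 1 point. At C38 it was 92 points below *trm4b-1* in Gly(CCC) and 90 points below in Gly(GCC). Against *trdmt1* it was lower by 74 to 91 points at C48 and C50, and by 9 points at Gly(GCC) C49, 28 points at Gly(TCC) C49 and 44 points at Gly(CCC) C49. Gly(GCC), the isoacceptor with all 4 sites, was left with C49 alone at 81%.

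In the other 3 lines, *trm4a*, *nsun5-2* and *nop2a-2*, no glycine site was lost, as for all sites of the series. In *trm4a*, none of the 10 sites was called, beside 3.33% of 30 sites in the series, and the largest difference from wild type seedlings was 4 points. In *nop2a-2*, none was called, as in the whole series (0% of 27 sites), and the largest difference was 15 points, at Gly(CCC) C38. In *nsun5-2*, 2 of 10 were called, beside 7.41% of 27 sites, and these 2 were the only calls in that line: Gly(CCC) C38 and Gly(CCC) C48, 25 and 20 points below wild type seedlings. C49 of the same tRNA was 10 points above the wild type. Among the mutants, *nsun5-2* and *nop2a-2* had the fewest sites measured.

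Gly(CCC) was uneven between libraries where the other glycine tRNAs were not. Over the 5 columns with no *trdmt1* or *trm4b* mutation, its sites spanned 70% to 95% at C38, 69% to 100% at C48 and 80% to 100% at C49, ranges of 25, 31 and 20 points. The 7 sites of Gly(GCC) and Gly(TCC) spanned 3 to 6 points each. The median range over the 25 fully measured sites was 5 points and the highest 33 points, at Arg(ACG) C49, which is named after its value was seen. Apart from the highest C38 level, 95% in wild type seedlings, the extreme levels of Gly(CCC) were in *nsun5-2* and *nop2a-2*. These lines were low at some of its sites and at 100% at another. In *trm4a* and the wild types it lay at 91% to 95% at C38, 85% to 92% at C48 and 90% to 96% at C49. Among the mutants, *nsun5-2* and *nop2a-2* had the fewest sites measured, 27 each. They also held the lowest and highest of these levels of Arg(ACG) C49, 67% and 100%. Gly(CCC) has 5 loci, against 22 for Gly(GCC) and 12 for Gly(TCC). The part of read depth in this spread was not tested.

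**Figure D4:**
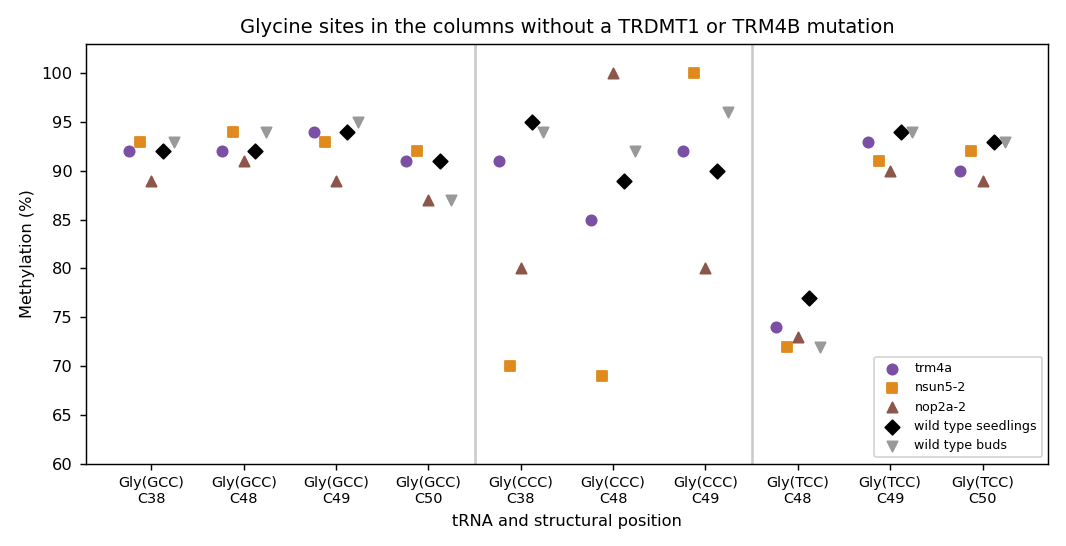
Methylation in percent (vertical axis, drawn from 60%) at each glycine site in the 5 columns without a *trdmt1* or *trm4b* mutation. Points of Gly(GCC) and Gly(TCC) lay within 6 points at each site, and those of Gly(CCC) spread over 20 to 31 points.

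The list also held 4 other glycine entries without a listed site, named here for their sequence alone. The nuclear Gly(ACC) entry, of 1 locus and 69 bases, has a cytosine at position 38 and also holds the letters acccggg. The 2 chloroplast entries and the entry shared by mitochondrion and nucleus have no cytosine at positions 38 or 49. The chloroplast Gly(GCC) has C48 and C50 and the chloroplast Gly(TCC) has C50, none of them listed as methylated. An entry without a listed site may also be one that was not detected.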

How the data were processed

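After adapter trimming and removal of low quality reads, the authors mapped reads in CLC Genomics Workbench to tRNA sequences with each C turned into T (version: not given in the sources used here). They had collapsed like tRNAs of TAIR10, the build in the submitters' processing notes, into 100 consensus sequences, of which 58 were nuclear alone. The deposited values are percent methylation in whole percents, and a site needed 5 reads and 20%. A level resting on 5 reads changes by 20 points with each read. Replicates of wild type seedlings were deposited as a mean. Cytosines with other modifications can also resist bisulfite. The unmethylated luciferase control RNA was not analysed here.

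Columns were matched to genotypes by name, with 0 left unmatched. Position 38 was counted from the anticodon, and positions 48 to 50, 64 and 65 from the 3′ end, where the last base is 73. The anticodon was taken as the first match of its letters after T or C near the middle of the sequence. Single sequences may thus be misplaced, such as Leu(CAG) and Lys(TTT), where a C came before the match. Counts of sequences with C38 carry this limit. Sequences without the usual T loop letters there were left unnumbered. The members, lists, thresholds and compared tRNAs were chosen with earlier results of these data known. Every glycine site was named, with Asp(GTC), Glu(CTC), Glu(TTC) and the extreme C49 sites for comparison. The closing section gives the alternatives tried. Sequences were aligned globally with biopython 1.88, under Python 3.11.15 with numpy 2.4.6, pandas 2.3.3 and matplotlib 3.10.9.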

Additional observations from a re-analysis of the deposited data

Results flagged for a closer look

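At both C38 sites the mutant lay above its wild type in one *trm4b* allele and below it in the other. Gly(CCC) C38 was 1 point higher in *trm4b-2* buds and 3 points lower in *trm4b-1* seedlings, so the effects differed by 4 points. Gly(GCC) C38 was 1 point higher in *trm4b-2* buds and 2 points lower in *trm4b-1* seedlings, so the effects differed by 3 points. These differences were not tested, since each allele had 1 library. Over the 5 columns without a *trdmt1* or *trm4b* mutation the same sites spanned 25 and 4 points.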

How the results depend on the processing

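Counts of calls, background shares and C49 medians were computed again under 44 alternatives: falls of 10 and 30 points, a ratio below 0.5, lost levels up to 0%, 10% and 20%, the other tissue's wild type, means for medians, and fully measured sites alone. Of these, 36 stayed close to the value in the report and 8 moved. Leaving out Gly(CCC), chosen after seeing the data, gave 10 more, of which 2 moved. With a ratio below 0.5, 5 glycine sites were called in *trm4b-1* (8 in the report), where each C49 kept over 0.5 of its wild type level, and 0 in *nsun5-2* (2 in the report). A fall of 30 points also gave 0 in *nsun5-2*, and a fall of 10 points gave 2 in *nop2a-2* (0 in the report), both in Gly(CCC). If only 0% counted as lost, *trdmt1 trm4b* had 4 lost glycine sites (7 in the report), *trm4b-1* had 3 (5 in the report) and *trm4b-2* had 2 (5 in the report). Without Gly(CCC), *trdmt1* had 1 called site (2 in the report) and *nsun5-2* had 0. With fully measured sites alone, 0% of all sites were called in *trm4a* (3.33% in the report). No result reversed. No paired analysis was possible because each mutant had 1 library and the wild type seedling libraries were deposited as a mean, so that no replicate could be left out either. Unknown depth at each site limits every level.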
